A study of Mus musculus with 45 samples.

Results

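Microglia, the macrophages of the brain parenchyma, were compared between postnatal day 21 (P21, 3 weeks) and P56 (8 weeks). The comparison rests on 10 of the 45 RNA-seq libraries of the study, 5 at each age, which were chosen by their labelled cell type and age and not by a measured value. The study sorted microglia, macrophages of the meninges (mMΦ) and macrophages of the perivascular space (pvMΦ) from individual mice at up to 5 ages and counted reads per gene. Every mouse was of strain C57BL/6J, was kept free of specific pathogens without treatment and had the genotype Cx3cr1GFP/wt. Both ages therefore carried GFP on a single Cx3cr1 allele, and no group without this reporter was analysed here. The labels divide the libraries into batches Project_S232 and Project_S276, called S232 and S276 here: replicates 1 to 3 of each age are S232 and replicates 4 and 5 are S276, so that batch was balanced between the ages. The labels give neither sex nor the gate of the sort.

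Microglia colonise the brain in the embryo and mature over the first postnatal weeks. Young microglia are amoeboid and phagocytic, clear synapses and dying cells, and express lipid-handling and lysosomal genes. Mature microglia are ramified, survey the tissue and express a homeostatic set that depends on TGF-beta signalling, with the purine receptor P2ry12, the surface protein Tmem119 and the transcription factor Sall1 among its best-known members. P21 is the age of weaning and P56 that of the young adult, so the comparison covers the last stretch of this maturation.

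The libraries carried the markers of microglia at both ages. Levels are given as CPM, the count of a gene scaled to library size by TMM. P2ry12 stood between 12233 and 16271 CPM at P21 and between 10247 and 14519 CPM at P56, and the 26 homeostatic genes together took 146571 to 188085 CPM at P21 and 158384 to 216975 CPM at P56. Of the border macrophage markers, Pf4 reached at most 5.33 CPM in microglia, against at least 1644 CPM in every pvMΦ library of P21 and P56. The whole list of these markers summed to 724 to 1225 CPM at P21 and 409 to 911 CPM at P56. The neuronal marker Snap25 reached at most 17.4 CPM. Endothelial markers summed to 788 to 1014 CPM at P21 and 822 to 1281 CPM at P56, and astrocyte markers to 188 to 291 and 85.0 to 446 CPM. Of 20 lymphocyte genes 8, among them Cd3e and Cd79a, had no count in any of the 10 libraries, but the list summed to 574 to 713 CPM at P21 and 269.6 to 880.2 CPM at P56, most of it from Ighm (164 to 777 CPM) and Cd79b (36.8 to 177 CPM). Total counts ran from 9898257 to 21933068. P56 replicate 2 had the lowest total, and P21 replicate 1 held both Xist (121 CPM) and Y-linked transcripts (74.4 CPM summed), while the other 9 libraries had Y-linked transcripts and at most 5.96 CPM of Xist. Results that could rest on these 2 libraries are also given without them. The S232 libraries of P56 correlated with each other at a mean r of 0.797 to 0.817 across genes, below the 0.916 to 0.922 of S232 at P21 and the 0.961 to 0.968 of S276 at either age.

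Between P21 and P56 few differences in the microglial transcriptome passed the main test. A gene counts as called where its p, adjusted after Benjamini and Hochberg over all genes, was below 0.05. Of 10967 genes tested by edgeR's quasi-likelihood method with batch in the model, 1 was called (0.00912%), the cytosolic chaperone Hsp90ab1. DESeq2 called 200 genes (1.95%), 51 higher (0.498%) and 149 lower at P56 (1.46%). In data simulated from the 10 libraries, 43.2 to 51.9% of DESeq2's calls and 10.5 to 19.7% of edgeR's calls were false. Of 67 2-fold changes put into the simulated data edgeR found 2 to 7, and of 67 4-fold changes 21 to 22. Of 66 8-fold changes it found 33 to 40. A gene that edgeR did not call is not thereby shown to be equal at both ages. An unadjusted p under 0.05 was reached by 1035 genes (9.44%), 528 of them with the higher value at P56 (4.81%) and 507 with the lower value (4.62%). Of the genes left unchanged in the simulated data, 8.34 to 10.2% had such a p with edgeR. All 5 libraries of P56 lay above all 5 of P21 for 41 genes (0.374%) and below them for 60 (0.547%). A random order of the 10 libraries gives a full separation, in either direction, with a probability of 0.00794. Both shares are thus near those of a random order, so that a lack of overlap by itself does not set a gene apart. The percentages over all genes tested are the background against which the counts of gene groups below are read. The median log2 fold change of all genes was 0.03.

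Hsp90ab1 encodes the constitutive cytosolic HSP90, which folds kinases and receptors. Its level was 728, 844 and 890 CPM in the S232 libraries and 375 and 379.8 CPM in the S276 libraries of P21. At P56 it was 1946, 1800.3 and 1764 CPM in S232 and 855 and 1034 CPM in S276. Within each batch every P56 library lay above every P21 library, while across batches the lowest P56 value fell below the highest P21 value. The mean went from 643 ± 250 to 1480 ± 498 CPM (SD, n = 5 each), and Hsp90ab1 rose by a log2 fold change of 1.22 ± 0.12 (SE, edgeR adjusted p = 0.00101). The change was 1.17 within S232 and 1.30 within S276, and 1.20 without the 2 libraries named above. The call held when any single library was left out (1.18 to 1.27). It was lost without the batch term (1.20, edgeR adjusted p = 0.756) and with S232 alone (1.17, edgeR adjusted p = 0.0665). Across the whole age course of microglia the mean was 1504 ± 84.1 CPM at E14.5, 1102 ± 282 at P3 and 1107 ± 109 at P10 (SD, n = 3 each). P21 had the lowest mean of the 5 ages, but the ages differ in batch. E14.5 and P10 were all S232, P3 held 1 S276 library, and P21 and P56 held 2 each. In S232 alone the values were 728 to 890 CPM at P21 and 1764 to 1946 CPM at P56.

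Other heat shock proteins of the cytosol lay on the same side without passing the test. Hspa8, the constitutive HSP70 that strips clathrin coats and serves chaperone-mediated autophagy, was at 198, 197, 240, 175 and 178 CPM at P21 and at 448, 336, 368, 304 and 383 CPM at P56. The groups did not overlap, and the log2 fold change was 0.90 ± 0.17 (edgeR adjusted p = 0.182), close to equal in S232 (0.88) and S276 (0.93). Hsp90aa1, the inducible HSP90, was at 33.5 to 46.3 CPM at P21 and 50.6 to 96.8 CPM at P56, again with no overlap (0.80 ± 0.27, edgeR adjusted p = 0.45). The stress-inducible HSP70 genes were scarce. Hspa1a ran from 5.87 to 18.8 CPM at P21 and from 9.09 to 68.7 CPM at P56 (1.67 ± 0.45), and Hspa1b from 0.323 to 22.5 and from 4.51 to 98.7 CPM (1.75 ± 0.58). Reads of this near-identical pair may be split between the copies, so their single values are uncertain. The co-chaperone Dnajb1 had a log2 fold change of -0.33 ± 0.29 and the HSP70 relative Hspa4 one of -0.02 ± 0.31.

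**Figure D1:**
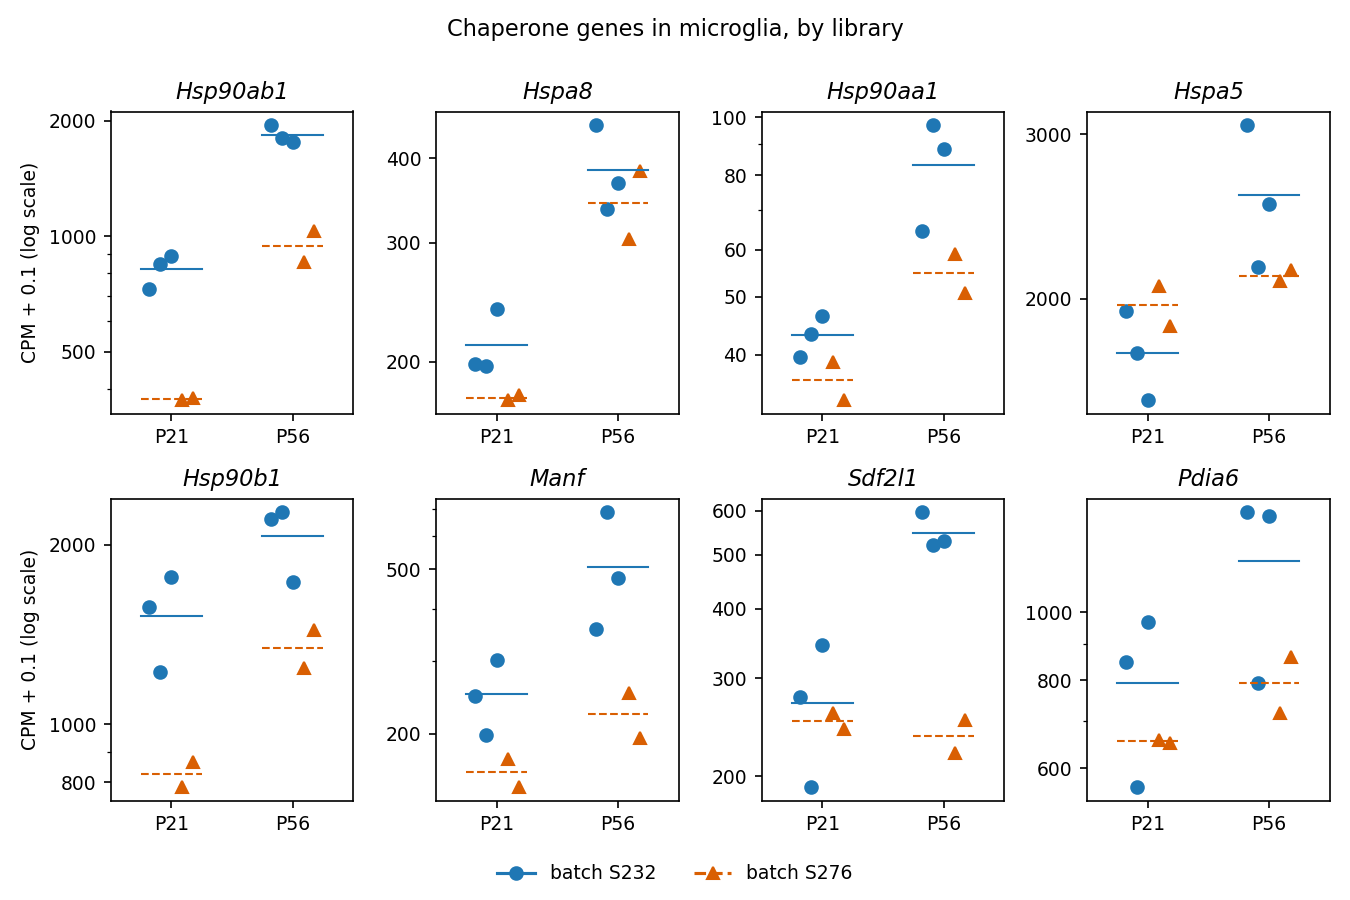
CPM (plus 0.1, log axis) of 8 chaperone genes in each microglia library at P21 and P56, with S232 libraries as circles and S276 libraries as triangles and the mean of each batch as a line. For Hsp90ab1 both batches step up by a similar factor, from 643 to 1480 CPM on average, and for Hspa8, Hsp90aa1 and Hspa5 no P56 point lies below a P21 point.

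In the endoplasmic reticulum, chaperones and disulfide isomerases fold secreted and membrane proteins, and the unfolded protein response raises them through the factors ATF6 and XBP1. Hspa5 (BiP), the HSP70 of this compartment, was at 1939, 1749, 1559, 2064 and 1872 CPM at P21 and at 3067, 2162, 2526, 2088 and 2146 CPM at P56. The groups just failed to overlap, with a log2 fold change of 0.38 ± 0.14 (edgeR adjusted p = 0.469). Hsp90b1 (GRP94) had a log2 fold change of 0.54 ± 0.14, the trophic factor Manf 0.80 ± 0.22, the BiP cofactor Sdf2l1 0.59 ± 0.23, and the isomerases Pdia6 and Pdia3 0.46 ± 0.19 and 0.29 ± 0.13. None of these passed the adjusted threshold. For Sdf2l1 the difference was in S232 alone: 191 to 344 CPM at P21 against 520 to 596 CPM at P56, while S276 gave 259.5 and 244 against 221 and 253 CPM. Xbp1 itself had a log2 fold change of 0.43 ± 0.19, Atf6 one of 0.40 ± 0.38 and Calr one of 0.28 ± 0.17. The stress factors Atf4 (-0.35 ± 0.23), Ddit3 (0.27 ± 0.44) and Herpud1 (0.07 ± 0.21) did not pass either, and Trib3 was too low to test.

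Counted together, 29 of the 30 listed chaperone and unfolded protein genes were tested. Of these, 1 was called (0.00912% of all genes), 12 had an unadjusted p under 0.05 with the higher value at P56 (background 4.81%) and 1, the amino acid synthesis gene Asns, with the lower value (background 4.62%). The median log2 fold change of the list was 0.40 against 0.03 for all genes, and 24 of the 29 values were above 0. Without the 2 libraries named above the counts were 10 and 1 (backgrounds 3.59 and 3.89%) with a median of 0.35. Within S232 they were 10 and 0 (backgrounds 4.42 and 6.58%) with a median of 0.52, and within S276 they were 7 and 4 (backgrounds 8.27 and 8.51%) with a median of 0.23. The sum of the list ran from 10960.4 to 12834 CPM at P21 and from 12770.4 to 19635 CPM at P56.

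The promoters of the endoplasmic reticulum chaperones are shown because several of these genes share a known control element. The ER stress element, spelled CCAAT, 9 bases of any kind and CCACG, and known to be bound by NF-Y together with ATF6, was searched on both strands of the 250 bases before each RefSeq start in the table of build GRCm38.p6. It occurred in 37 of 32851 promoters (0.113%). Of the 30 listed genes 25 were in the table and 5 held a match: Hspa5, Hsp90b1, Pdia6, Calr and Canx. Promoters of 3 of them follow, 5′ to 3′ in the gene's direction, with matches in capitals; they lie at chr2:34771840-34772089 (plus strand), chr10:86705445-86705694 (minus strand) and chr12:17266339-17266588 (plus strand).
Hspa5: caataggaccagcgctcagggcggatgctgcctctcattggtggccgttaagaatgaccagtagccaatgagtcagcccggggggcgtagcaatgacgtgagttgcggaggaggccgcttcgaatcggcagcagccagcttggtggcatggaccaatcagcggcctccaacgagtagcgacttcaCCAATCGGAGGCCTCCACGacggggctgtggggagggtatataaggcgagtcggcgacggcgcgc
Hsp90b1: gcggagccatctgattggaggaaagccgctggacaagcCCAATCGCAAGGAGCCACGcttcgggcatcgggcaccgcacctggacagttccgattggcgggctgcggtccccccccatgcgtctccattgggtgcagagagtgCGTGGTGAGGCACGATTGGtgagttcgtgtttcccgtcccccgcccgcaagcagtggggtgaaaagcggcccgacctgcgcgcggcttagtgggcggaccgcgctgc
Pdia6: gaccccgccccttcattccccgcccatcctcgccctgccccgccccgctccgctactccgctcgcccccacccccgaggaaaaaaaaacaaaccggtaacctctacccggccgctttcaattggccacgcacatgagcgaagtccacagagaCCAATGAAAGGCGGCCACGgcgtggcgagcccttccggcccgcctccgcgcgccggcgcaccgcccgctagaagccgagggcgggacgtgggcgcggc
The match in Hspa5 spans bases 65 to 47 before the start and that in Pdia6 bases 98 to 80. Hsp90b1 holds a match on the plus strand at 212 to 194 and one on the minus strand at 107 to 89. The 5 genes with a match had log2 fold changes from -0.03 (Canx) to 0.54 (Hsp90b1), and Hspa5 had the only groups without overlap among them. The heat shock element, spelled GAA, TTC and GAA with 2 bases of any kind after each of the first 2 blocks, occurred in 153 promoters (0.466%) and in 2 listed genes, the mitochondrial chaperones Hspd1 and Hspe1, with log2 fold changes of 0.38 ± 0.38 and 0.47 ± 0.40. These 2 genes share a bidirectional promoter, and the same letters are counted for both. The promoters of Hsp90ab1 and Hspa8 were not analysed here. A match is a description of these letters and was not tested as a site.

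Among the genes with lower values at P56, no gene was called by edgeR. The 2 smallest p-values belonged to Ccr1 and Lpl. Ccr1, a receptor for inflammatory chemokines, was at 138, 59.4, 47.3, 61.2 and 99.0 CPM at P21 and at 0.286, 4.48, 12.3, 20.7 and 14.51 CPM at P56. Lpl, the lipoprotein lipase that releases fatty acids from triglyceride-rich particles, was at 110, 90.3, 208, 92.5 and 62.1 CPM at P21 and at 36.8, 52.5, 34.2, 26.1 and 19.5 CPM at P56. Neither gene's groups overlapped. The log2 fold changes were -2.87 ± 0.51 and -1.78 ± 0.32 (edgeR adjusted p = 0.182 for both). When all 19 microglia libraries of the 5 ages shared one estimate of the spread, both were called, together with Hsp90ab1, Hspa8, Picalm and the protease Klk8. Lpl stood at 325 to 906 CPM at E14.5, P3 and P10, above every P21 and P56 library, and Ccr1 at 29.5 to 122 CPM at those ages, above all 5 libraries of P56.

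Lpl is a member of a group that marks amoeboid, lipid-associated and disease-associated microglia. Clec7a, the beta-glucan receptor dectin-1, was at 74.2, 29.7, 111, 39.8 and 49.2 CPM at P21 and at 0, 0.364, 0.625, 12.8 and 27.4 CPM at P56, with no overlap (-2.77 ± 0.68, edgeR adjusted p = 0.298). Only the S276 libraries kept more than 1 CPM of it at P56. Spp1 (osteopontin), a secreted phosphoprotein, was at 20.7, 49.1, 31.8, 7.48 and 103 CPM at P21 and at 11.02, 1.82, 0.417, 2.75 and 0.571 CPM at P56 (-3.60 ± 0.85, edgeR adjusted p = 0.298), and 1 library of each age overlapped. It had been at 583 to 2263 CPM at E14.5 and P3. Axl, a receptor for apoptotic cells, had a log2 fold change of -1.74 ± 0.68 and the growth factor Csf1 one of -1.63 ± 0.72, in both cases with P56 values under 2 CPM in S232 and above 10 CPM in S276. Csf1 was not lower in S276, at 38.95 and 18.05 CPM at P21 and 29.1 and 39.5 CPM at P56. Itgax (-0.91 ± 0.92) and Cst7 (-0.35 ± 0.56) showed no difference beyond their errors. In all, 6 of 25 tested members had an unadjusted p under 0.05 on the lower side (background 4.62%). On the higher side there were 2, Tyrobp and Trem2 (background 4.81%). The list's median log2 fold change was -0.26, and without the 2 libraries named above the counts were 7 and 0 (backgrounds 3.89 and 3.59%).

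**Figure D2:**
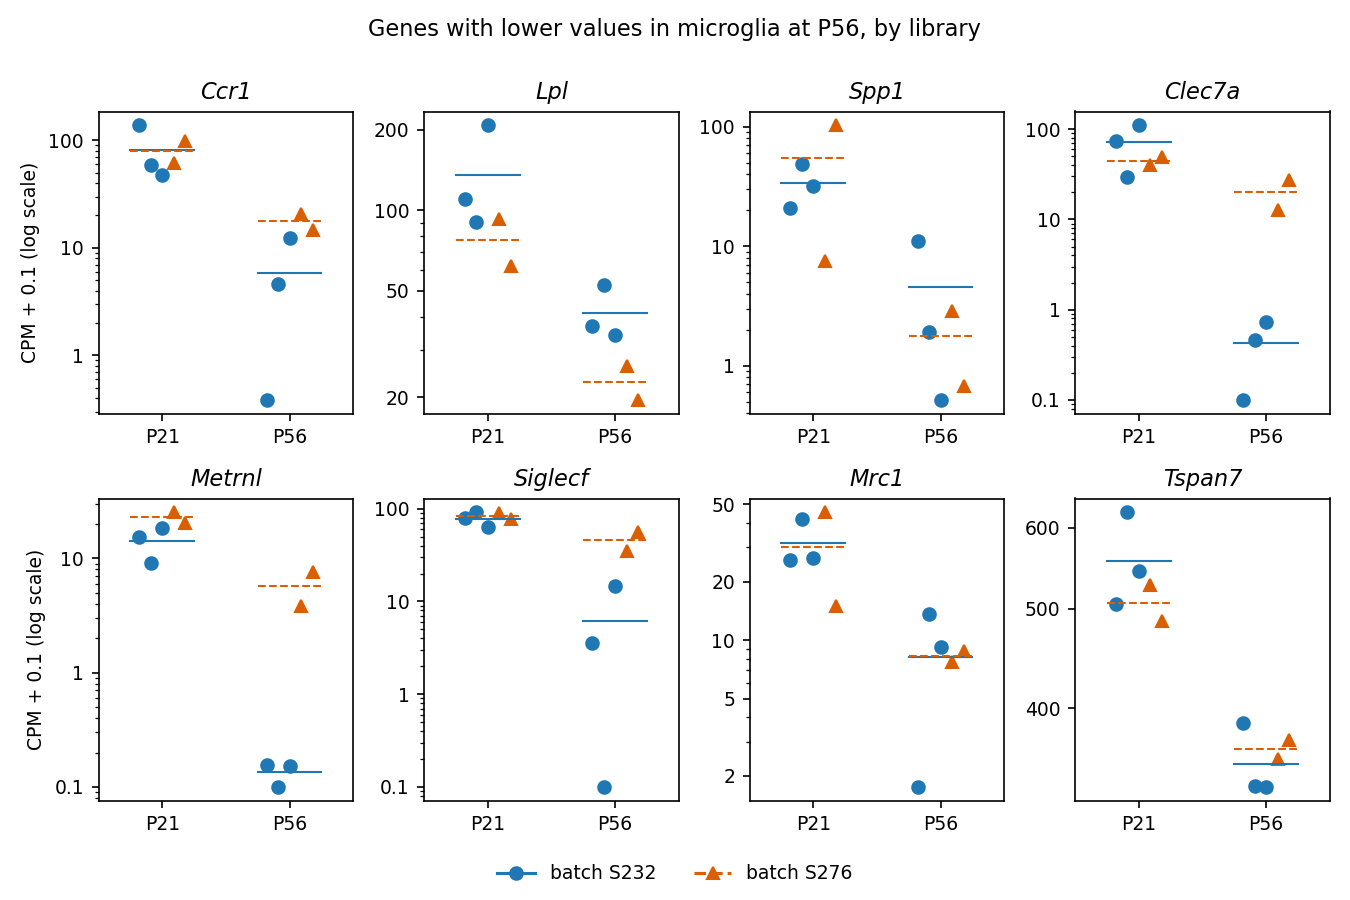
CPM (plus 0.1, log axis) of 8 genes with lower values at P56, by microglia library, with S232 as circles, S276 as triangles and batch means as lines. In Ccr1, Lpl, Clec7a, Metrnl, Siglecf, Mrc1 and Tspan7 every P56 point lies below every P21 point, and for Clec7a, Metrnl and Siglecf the S276 libraries of P56 stay above those of S232.

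By the same rule, 9 more genes were named on the lower side: without overlap and with the smallest p. They were Metrnl (-2.91 ± 0.69), a secreted cytokine-like factor, Siglecf (-1.91 ± 0.46), a sialic acid receptor, Mrc1 (-2.07 ± 0.52), the mannose receptor, Oasl2 (-2.71 ± 0.71), an interferon-induced gene, Atm (-2.71 ± 0.74), the DNA damage kinase, Npnt (-1.82 ± 0.50), an integrin ligand, Tmem44 (-2.14 ± 0.52), Actr3 (-0.63 ± 0.17), a subunit of the actin-branching ARP2/3 complex, and Tspan7 (-0.59 ± 0.14), a tetraspanin. Siglecf was at 63.7 to 91.4 CPM in all 5 libraries of P21, at 3.43, 0 and 14.54 CPM in S232 at P56, and at 35.3 and 56.5 CPM in S276 at P56. The log2 fold change was therefore -3.39 within S232 and -0.91 within S276. The same held for Npnt (-3.01 and -0.81), Tmem44 (-3.60 and -1.10) and Oasl2 (-7.12 and -1.32). Metrnl (-8.08 and -2.08), Atm (-5.32 and -1.74), Clec7a (-7.69 and -1.19) and Ccr1 (-3.73 and -2.18) did likewise. At P56 the S232 libraries held at most 0.0571 CPM of Metrnl, 0.364 of Oasl2, 0.625 of Clec7a and 0.742 of Atm. The size of these S232 changes is therefore uncertain. None of the genes with unlike changes was called in the comparison of batches given below. Lpl (-1.78 and -1.79), Tspan7 (-0.65 and -0.50), Actr3 (-0.68 and -0.56) and Mrc1 (-2.15 and -1.98) had like values in both batches. At equal depth the S232 libraries of P56 also had the fewest genes with at least 5 counts (9384 to 9835). A link between the 2 was not tested. The edgeR adjusted p-values of the 12 genes of this side ran from 0.182 to 0.369, and DESeq2 called 9. The genes were picked by their p in the same libraries, so this count is not separate support. Mrc1, which also marks border macrophages, was at 309 ± 7.75 CPM at P3 and 348 ± 23.02 CPM at P10 (SD, n = 3 each) before its 14.9 to 45.3 CPM at P21 and 1.66 to 13.6 CPM at P56. In bulk libraries of sorted cells, fewer cells of a type and less RNA per cell cannot be told apart. The border macrophage list was at 724 to 1225 CPM in sum at P21 and at 409 to 911 CPM at P56. Of its 24 members, 10 were high enough to test. At an unadjusted p under 0.05 none was higher (background 4.81%) and 2, Mrc1 and Gas6, were lower (background 4.62%).

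On the higher side, 11 genes beside Hspa8 were named by the same rule, none of which was called. Picalm, a clathrin adaptor and known Alzheimer's disease risk gene, was at 341, 341, 255, 242 and 279 CPM at P21 and at 470, 654, 463, 590 and 453 CPM at P56 (0.85 ± 0.17, edgeR adjusted p = 0.237). The collagen-modifying enzymes Plod3 (0.74 ± 0.17) and P4ha1 (0.70 ± 0.18) were both on this list. Plod3 ran from 141 to 206 CPM at P21 and from 263 to 348 CPM at P56. Trpm2, a calcium channel gated by ADP-ribose, was at 8.24 to 17.2 CPM and 30.3 to 68.5 CPM (1.73 ± 0.40). Ryk (1.82 ± 0.44), a Wnt receptor, Lrig3 (2.65 ± 0.67), a membrane protein with leucine-rich repeats, Trappc10 (1.44 ± 0.35), of a vesicle tethering complex, S100a10 (1.88 ± 0.53), the partner of annexin A2, Rexo2 (0.93 ± 0.27), a mitochondrial oligoribonuclease, U2surp (0.91 ± 0.24), a splicing factor, and Ythdc2 (1.94 ± 0.58), an RNA helicase, completed it. Lrig3 had a log2 fold change of 4.25 in S232 and 0.99 in S276, while Picalm (0.76 and 0.98) and P4ha1 (0.69 and 0.70) had closer values. For the 12 genes of this side edgeR adjusted p-values ran from 0.182 to 0.446, and DESeq2 called 10. This count, too, comes from the libraries by which the genes were picked. Genes with small p-values whose groups overlapped were Klk8 (1.56 ± 0.28), the proteoglycan Srgn (1.61 ± 0.32), the autophagy gene Atg16l2 (3.43 ± 0.77, with 4.67 in S232 and 0.77 in S276, where the ages overlapped) and the cathepsin Ctsz (0.46 ± 0.10) on the higher side, and the phosphatase subunit Ppp1r10 (-1.48 ± 0.29) and the ubiquitin ligase Trim35 (-1.21 ± 0.24) on the lower side.

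The homeostatic signature held members on both sides. All 26 members were tested and none was called. On either side 3 had an unadjusted p under 0.05 (backgrounds 4.81% higher and 4.62% lower). The median log2 fold change was 0.03, as for all genes. Within S276 the counts were 10 higher and 6 lower (backgrounds 8.27 and 8.51%) with a median of 0.21, and within S232 they were 2 and 4 (backgrounds 4.42 and 6.58%) with a median of 0.00. P2ry12 had a log2 fold change of -0.13 ± 0.11, Tmem119 of 0.09 ± 0.12, Cx3cr1 of 0.09 ± 0.15 and Sall1 of 0.21 ± 0.22. Siglech, a sialic acid receptor of microglia, was at 3537, 3465, 3645, 1402 and 1426 CPM at P21 and at 3755, 4415, 4735, 2913 and 2628 CPM at P56 (0.55 ± 0.13, edgeR adjusted p = 0.298). Within S276 alone Siglech rose by 0.95 ± 0.10 on the log2 scale (edgeR adjusted p = 0.031), and within S232 its log2 fold change was 0.29. Cst3, the protease inhibitor cystatin C, was at 33061 to 72061 CPM at P21 and 44199 to 119974 CPM at P56 (0.46 ± 0.09, edgeR adjusted p = 0.237). For Csf1r, the receptor on which microglial survival depends, the batches went opposite ways, with -0.52 in S232 and 0.54 in S276. The transcription factor Sall1 (-0.16 and 0.77) did likewise. Tests of these differences between batches gave edgeR adjusted p-values of 0.257 and 0.546 and did not pass.

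Complement and Fc receptor genes, with which microglia tag and engulf synapses and debris, had small differences. C1qb was at 17148, 18059.9, 17914, 10181 and 9939 CPM at P21 and at 20869, 23280.1, 23353, 13822 and 11963 CPM at P56, higher within each batch without overlap (0.35 ± 0.08, edgeR adjusted p = 0.298). C1qa (0.34 ± 0.10), Fcgr3 (0.49 ± 0.13), Fcer1g (0.47 ± 0.15) and Fcgr1 (0.43 ± 0.16) lay on the same side. Of 27 tested members, 7 had an unadjusted p under 0.05 with the higher value at P56 (background 4.81%). The lower value was held by 4, the scavenger receptor Msr1, Sirpa, Gas6 and Axl (background 4.62%). The counts were 6 and 3 of 28 without the 2 libraries named above (backgrounds 3.59 and 3.89%).

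Nuclear genes of oxidative phosphorylation had the highest median of the 24 functional lists, 0.46, with 35 of 41 values above 0. Of the 41, 11 had an unadjusted p under 0.05, all on the higher side (background 4.81%). Ndufv2 of complex I was at 138, 126, 131, 93.4 and 118 CPM at P21 and at 230, 364, 295, 136 and 101 CPM at P56 (0.78 ± 0.24), and Ndufb8 of the same complex was at 83.8 to 176 and 93.7 to 325 CPM (0.73 ± 0.22). The high values were those of S232 at P56, P56 replicate 2 highest. Without the 2 libraries named above 6 members were on the higher side (background 3.59%) and the median was 0.30. Within S232 it was 5 of 41 members (background 4.42%) with a median of 0.51. Within S276 it was 3 of 41 members (background 8.27%) with a median of 0.29. DESeq2 called none. The 81 ribosomal protein genes tested held none with an unadjusted p under 0.05 on either side.

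**Figure D3:**
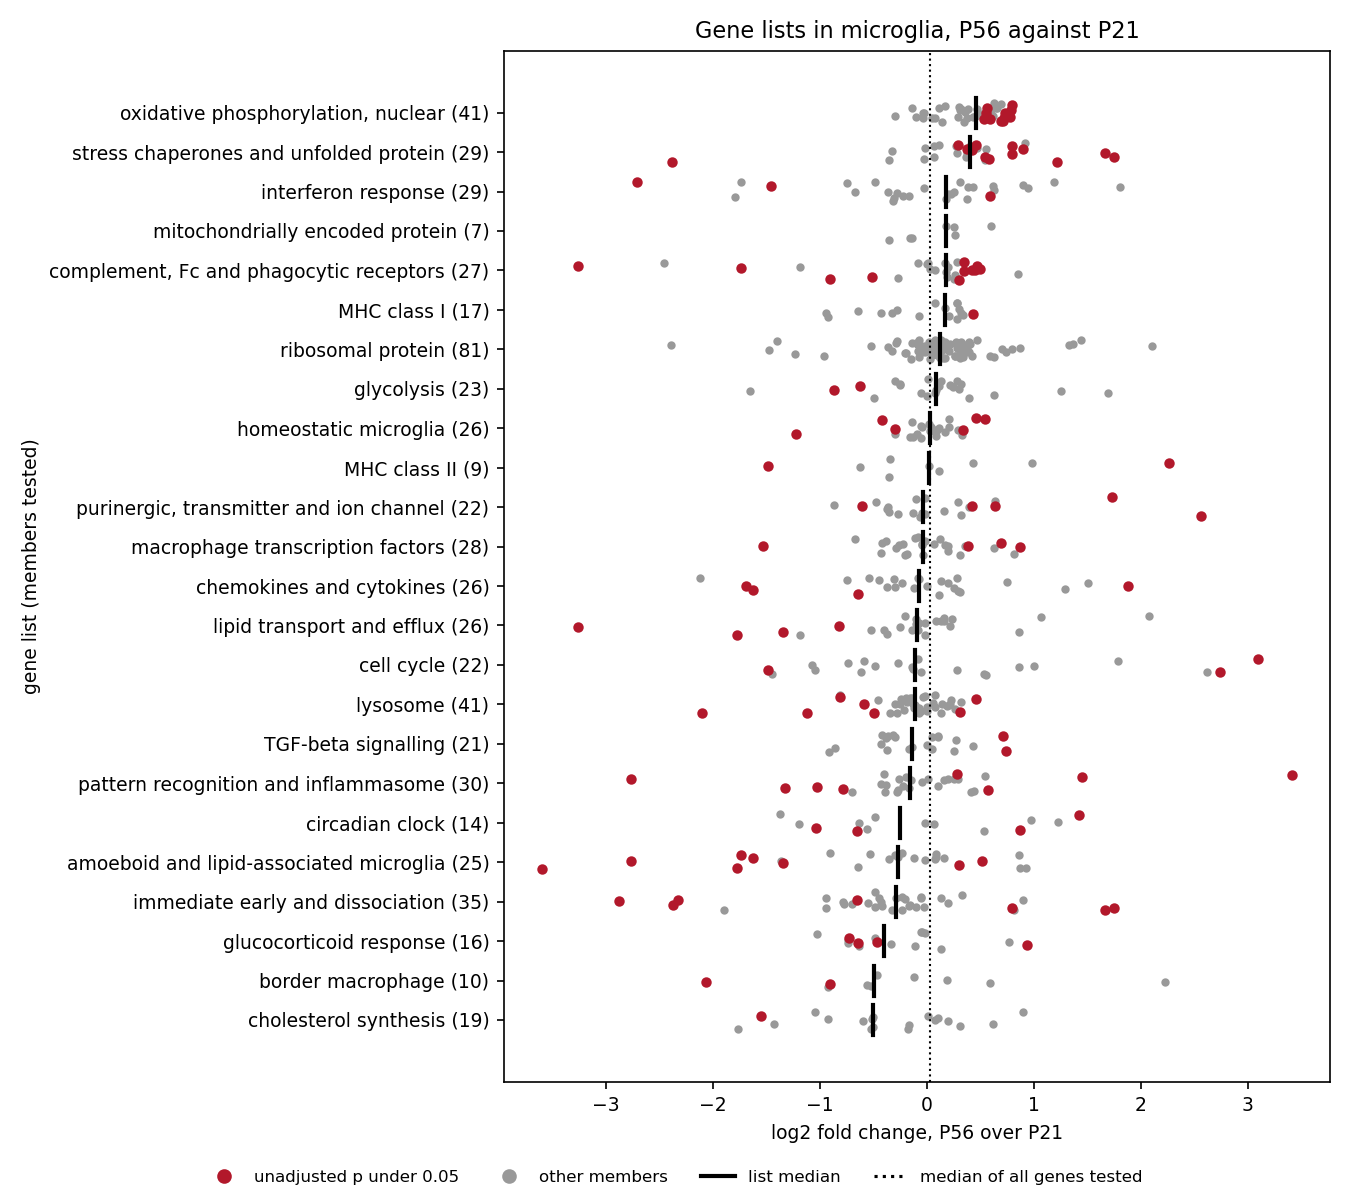
Log2 fold change (P56 over P21, edgeR) of each tested member of 24 gene lists in microglia, ordered by the list median (bar), with members of unadjusted p under 0.05 in red and the median of all genes, 0.03, as a dotted line. The medians run from -0.50 for cholesterol synthesis to 0.46 for oxidative phosphorylation, and red points lie mostly to the right in the 2 uppermost lists.

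Of the remaining lists, none had a called member. The backgrounds of their counts are 4.81% higher and 4.62% lower over both batches. They are 3.59 and 3.89% without the 2 libraries named above, 4.42 and 6.58% within S232 and 8.27 and 8.51% within S276. Cholesterol synthesis had a median of -0.50 over 19 tested members, and of -0.26 without the 2 libraries named above. Glucocorticoid-responsive genes had a median of -0.40 over 16 members, against -0.08 within S232 and -0.19 within S276, with Tsc22d3 (-0.73 ± 0.23), Sgk1 (-0.65 ± 0.21) and Sesn1 (-0.47 ± 0.21) on the lower side and the sulfotransferase Sult1a1 (0.94 ± 0.23) on the higher. Lysosomal genes were split, with 5 of 41 lower, among them the sulfatases Arsa (-1.12 ± 0.38) and Arsb (-0.81 ± 0.23), and 2 higher, the cathepsins Ctsz and Ctsh. Without the 2 libraries named above 3 were lower. Interferon-responsive genes gave 1 higher and 2 lower of 29. TGF-beta signalling gave 2 higher and 0 lower of 21, but 0 and 2 of 22 without the 2 libraries named above and 4 and 8 of 23 within S276. Chemokines and cytokines gave 4 higher and 1 lower of 26 within S232 and 2 and 9 of 28 within S276, with 1 and 3 of 26 over both, the lower including Ccl9 (-0.64 ± 0.17) and Tnf (-1.69 ± 0.54). The proliferation marker Mki67 stayed at or under 1.499 CPM at both ages and was not tested. Markers of other cell types were mostly too low to test. The sum of the neutrophil list was 219 to 327 CPM at P21 and 69.6 to 291 CPM at P56, almost all of it from Csf3r. Csf3r was at 219 to 253 CPM in S232 at P21 and 68.4 to 113 CPM in S232 at P56. In S276 it was at 326 and 257 CPM at P21 and at 262 and 291 CPM at P56. S100a8 reached at most 0.847 CPM.

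The apolipoprotein gene Apoe, which carries lipids between brain cells and is raised in disease-associated microglia, took opposite courses in the batches. In S232 it was at 1886, 1953 and 2176 CPM at P21 and at 266, 215 and 465 CPM at P56. In S276 it was at 208 and 170 CPM at P21 and at 406 and 298 CPM at P56. At P56 the batches overlapped, and at P21 they did not. Over all 10 libraries the log2 fold change was -1.35 ± 0.54 (edgeR adjusted p = 0.481). Within S232 alone Apoe fell by 2.63 ± 0.26 on the log2 scale (edgeR adjusted p = 0.00259), the only call among 10562 genes (0.00947%). Within S276 its log2 fold change was 0.87 ± 0.20. The earlier ages give a steep course: 7171 to 8285 CPM at E14.5, 14241 to 16390 CPM at P3, where the single S276 library had the highest value, and 5037 to 6337 CPM at P10. In pvMΦ the S276 library was also the lowest at P21, with 23433 CPM against 62111 to 70254 CPM in S232, and at P56, with 46080 against 64941 to 94944 CPM. Genes that border macrophages carry at higher levels gave mixed values beside Apoe. At P21 Mrc1 was at 25.9 to 41.8 CPM in S232 and at 45.3 and 14.9 CPM in S276, and the sum of that list was lower in S232 (724 to 848 CPM) than in S276 (1217 to 1225 CPM). Cd74, in contrast, was higher in S232 (131 to 156 CPM) than in S276 (49.8 and 56.6 CPM) at P21, and at 7.76 to 50.9 CPM in S232 at P56. Pf4 was at 1.59 to 5.33 CPM in S232 and at 0.892 and 2.48 CPM in S276 at P21. The part of border macrophage RNA in the Apoe values was not tested.

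How far the age difference itself differed between batches was tested across all genes, a test added after the data were seen. Of 13492 genes 6 were called by edgeR (0.0445%), and 1027 had an unadjusted p under 0.05 (7.61%). Apoe had the lower change in S232, by -3.51 ± 0.40 on the log2 scale (edgeR adjusted p = 0.0108). The other 5 had the higher change in S232: Sertad1 (3.78 ± 0.42, edgeR adjusted p = 0.0108), Cited2 (2.99 ± 0.42, 0.0338), Egr1 (3.57 ± 0.50, 0.0338), Zfp36 (2.81 ± 0.40, 0.0338) and Ppp1r15a (4.54 ± 0.66, 0.0402). Egr1 and Zfp36 are immediate early genes, a zinc finger activator and an RNA-binding protein that ends inflammatory messages, which cells switch on within minutes of many stimuli. Ppp1r15a (GADD34) reverses the stress block on translation, and Sertad1 and Cited2 are transcriptional co-regulators. These calls depended on single libraries. None was made without P21 replicate 1, P21 replicate 2, P21 replicate 4 or P56 replicate 4, each left out alone, 3 were made without P56 replicate 2, 13 without P56 replicate 3 and 48 without P56 replicate 1.

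Per library, Egr1 was at 255, 283 and 530 CPM in S232 and at 4291 and 3215 CPM in S276 at P21. At P56 it was at 526, 547 and 413 CPM in S232 and at 275 and 619 CPM in S276. The P21 libraries of S276 thus stood apart from the other 8, which overlapped. Sertad1 likewise was at 54.1 to 65.2 CPM in S232 and 383 and 341 CPM in S276 at P21, and at 89.2 to 112 and 36.5 and 58.9 CPM at P56. Zfp36 had the same pattern, with 254, 226 and 366 CPM against 1784 and 1357 CPM at P21 and 479, 508 and 533 CPM against 281 and 541 CPM at P56. Btg2 (3.14 ± 0.52, edgeR adjusted p = 0.0801) and Fos (3.11 ± 0.47, edgeR adjusted p = 0.0511) did not pass. Within S276 alone Egr1 fell by 3.10 ± 0.37 on the log2 scale (edgeR adjusted p = 0.0318), 1 of 38 calls among 12095 genes (0.314%). Of 36 immediate early genes tested, 22 had an unadjusted p under 0.05 with the higher change in S232 and none with the lower. The background for both directions together was 7.61%. The median difference of these 36 was 1.85 against -0.06 for all genes. In sum the list took 5226 to 8385 CPM in S232 and 20245 to 25071 CPM in S276 at P21, and 8071 to 10494 and 5877 to 8585 CPM at P56. Over both batches together it gave 3 of 35 members higher and 4 lower at an unadjusted p under 0.05 (backgrounds 4.81 and 4.62%). The batches taken alone gave 7 and 1 (S232, backgrounds 4.42 and 6.58%) and 2 and 25 (S276, backgrounds 8.27 and 8.51%). Hsp90ab1, by contrast, differed by -0.14 ± 0.22 between the batches.

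**Figure D4:**
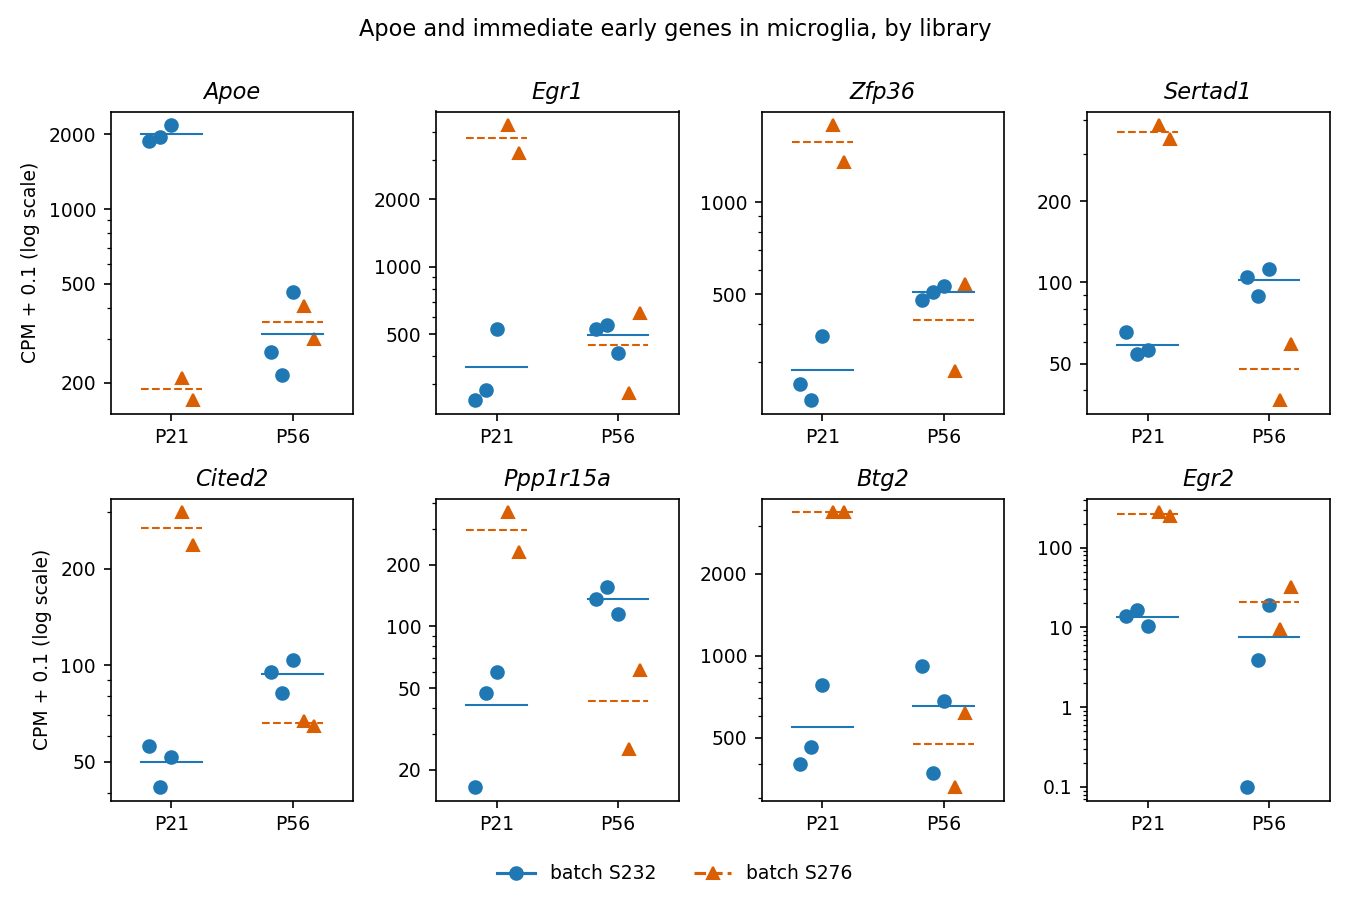
CPM (plus 0.1, log axis) of Apoe and 7 immediate early and stress genes by microglia library, with S232 as circles, S276 as triangles and batch means as lines. At P21 the S276 triangles lie below the circles for Apoe (170 and 208 against 1886 to 2176 CPM) and above them for the other 7 genes, while at P56 the batches lie closer together.

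To ask whether macrophages at the border of the brain changed alike, the microglial change from P21 to P56 was compared with that of mMΦ over the same ages (3 libraries each, all S232). Of 13775 genes 5 were called by edgeR (0.0363%), and each had the lower change in microglia, while 749 had an unadjusted p under 0.05 (5.44%). In data simulated from these libraries, 11.5 to 50% of edgeR's calls for this comparison were false. The change of mMΦ alone gave 10 calls (0.0726%). Cd74, H2-Ab1 and H2-DMa are genes of antigen presentation by MHC class II. Cd74, the invariant chain, was at 876, 256 and 757 CPM in mMΦ at P21 and at 12406, 8733 and 7173 CPM at P56. In microglia it was at 131, 131, 156, 56.6 and 49.8 CPM at P21 and at 50.9, 12.6, 7.76, 40.6 and 55.5 CPM at P56. The changes differed by -5.42 ± 0.68 on the log2 scale (edgeR adjusted p = 0.00522). H2-Ab1, a class II beta chain, was at 67.4 to 301 CPM and then 2874 to 5525 CPM in mMΦ, and at 18.7 to 37.3 CPM and then 8.45 to 62.2 CPM in microglia (difference -4.66 ± 0.67, edgeR adjusted p = 0.0079). H2-DMa, which loads peptides, was the exception in level: microglia held 356 to 511 CPM at P21 and 329.6 to 553 CPM at P56, while mMΦ went from 40.6 to 80.9 CPM up to 207 to 361 CPM (difference -2.23 ± 0.32, edgeR adjusted p = 0.0079).

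The other 2 genes were Cd81 and Ccr1. Cd81, a tetraspanin abundant in microglia, was at 5151 to 5482 CPM at P21 and 4941 to 7597 CPM at P56, whereas mMΦ went from 381 to 456 CPM to 918 to 1193 CPM (difference -1.28 ± 0.18, edgeR adjusted p = 0.0079). For Ccr1, mMΦ were at 329 to 479.9 CPM at P21 and at 519 to 686 CPM at P56, while microglia were at 47.3 to 138 CPM and then at 0.286 to 20.7 CPM (difference -3.53 ± 0.58, edgeR adjusted p = 0.0262). The call for Ccr1 was lost when any of 9 single libraries was left out (edgeR adjusted p from 0.0535 to 0.134), among them all 6 of mMΦ. Those for Cd81 and H2-DMa were lost without mMΦ P56 replicate 2 (edgeR adjusted p = 0.0621 for both), and that for Cd81 also without mMΦ P21 replicate 1 (0.0508), without the 2 libraries named above (0.0537) and with all 45 libraries (0.12). The call for Cd74 was lost with no filter on low counts (edgeR adjusted p = 0.179), and those for Cd74, H2-Ab1 and Ccr1 with edgeR's legacy fit (0.0602, 0.107 and 0.769) and with limma voom (0.412, 0.563 and 0.275), which also lost Cd81 (0.224). With S232 alone, where mMΦ and microglia share the batch, 2 genes were called, Cd74 (-6.39, edgeR adjusted p = 0.00116) and Apoe (-2.79, edgeR adjusted p = 0.000535). In mMΦ Apoe was at 63885 to 79824 CPM over both ages. Over the class II list, 6 of 10 tested members had a lower change in microglia at an unadjusted p under 0.05 (background 2.6%), none a higher one, and the median difference was -2.80 against 0.03 for all genes. Within microglia alone that list gave 1 higher and 1 lower of 9 (backgrounds 4.81 and 4.62%). Hsp90ab1 was at 1159 to 1675 CPM in mMΦ at P21 and 1603 to 2023 CPM at P56, and its change differed from that of microglia by 0.87 ± 0.20 (edgeR adjusted p = 0.305), which did not pass. In this comparison 9 of 30 chaperone genes had the higher change in microglia at an unadjusted p under 0.05 (background 2.84%) and none the lower.

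**Figure D5:**
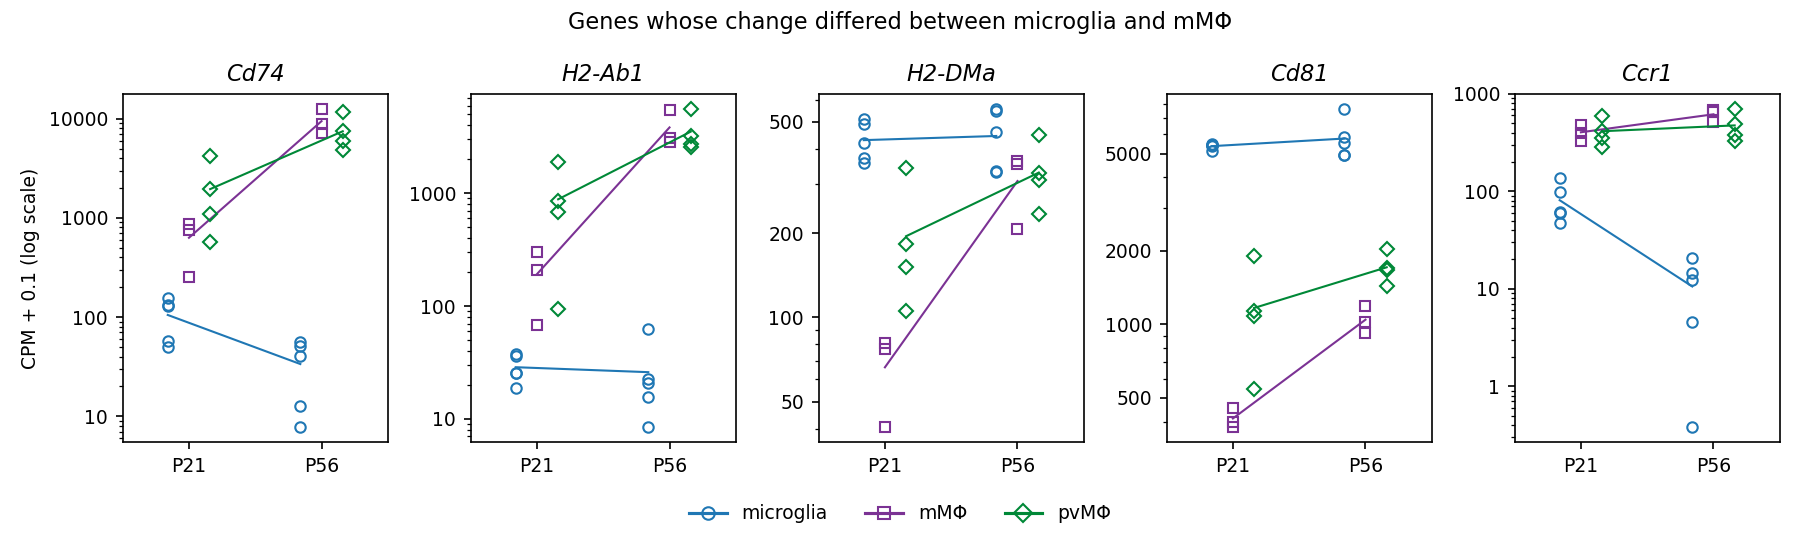
CPM (plus 0.1, log axis) at P21 and P56 of the 5 genes whose change differed between microglia (circles) and mMΦ (squares), with pvMΦ (diamonds) for comparison, points for libraries and lines joining group means. Cd74 and H2-Ab1 climb in the macrophage populations and not in microglia, and only the microglia points of Ccr1 step down, from at least 47.3 to at most 20.7 CPM.

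Against pvMΦ (4 libraries at each age) edgeR called none of 13120 genes, while 854 had an unadjusted p under 0.05 (6.51%), DESeq2 called 147 and limma voom none. The change of pvMΦ alone gave 2 calls (0.0152%). With the batch S232 alone edgeR called 1, Apoe (-2.91, adjusted p = 0.00051). Cd74 again had one of the smallest p-values, with 577 to 4175 CPM at P21 and 4787 to 11535 CPM at P56 in pvMΦ (difference -3.43 ± 0.72, edgeR adjusted p = 0.355), as had Ccr1 (-3.07 ± 0.60, edgeR adjusted p = 0.355), which pvMΦ held at 287 to 597 CPM and 328 to 693 CPM. Hsp90ab1 in pvMΦ was at 529 to 1529.6 CPM at P21 and 1386 to 2464 CPM at P56. Its log2 fold change there was 0.99 ± 0.26, and the difference from microglia was 0.26 ± 0.34 (edgeR adjusted p = 0.97). Of the 29 chaperone genes tested none had an unadjusted p under 0.05 for a difference from pvMΦ on either side. Immediate early genes had 16 of 37 with the lower change in microglia (background 3.15%) and none with the higher (background 3.36%), and their values by batch are given above. The comparisons with mMΦ and pvMΦ share the microglia libraries and are not independent.

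The number of genes detected was compared at equal depth. With every library thinned to 9898257 counts, 14826 ± 807 genes had a count at P21 and 14107 ± 1072 at P56 (SD, n = 5 each), a difference of -719 that was within the spread of the libraries (two-sided exact permutation test, p = 0.262, where the smallest p that 5 against 5 allows is 0.00794). With at least 5 counts asked for, 11443 ± 551 and 10563 ± 1306 genes were detected (exact permutation p = 0.175). Neither test takes account of batch. At this threshold the S232 libraries did not overlap, with 10945, 11298 and 10966 genes at P21 and 9631, 9384 and 9835 at P56, while the S276 means were 12003 and 11982. With 1 count asked for, the gap was in S232, where the means were 14520 and 13483, and small in S276, where they were 15285.5 and 15044.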

How the data were processed

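Sorted cells of single mice were turned into cDNA with an ultra-low-input SMARTer kit and sequenced as single reads without strand, per the labels' protocols, so overlapping and antisense genes cannot be told apart. The deposited values are raw read counts per gene, which the authors made with bcl2fastq 2.18, STAR 2.7.8a and featureCounts 2.0.2, per the submitters' processing notes; for build and annotation no statement is given in the sources used here. Of 53546 genes in the table, 27278 had a count in the 10 microglia libraries.

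Genes were filtered with filterByExpr (minimum count 10, minimum total 15), scaled by TMM and tested with edgeR 4.0.16 in R 4.3.3 (quasi-likelihood, batch as covariate), with Benjamini-Hochberg adjustment over all genes tested and a threshold of 0.05. Differences of changes were fitted over microglia with mMΦ (16 libraries) or pvMΦ (18 libraries). Printed CPM are scaled over all 45 libraries, whereas each test has its own scaling. DESeq2 1.42.0 and limma 3.58.1 (voom) were alternatives, and the scripts were tested on simulated data. Lists are described by counts and medians. Named are called genes, then up to 12 per direction without overlap and of smallest p at 5 CPM or more in either group, the 8 genes of next smallest p, and members of gene lists. Members, lists and tests were chosen with earlier results of these data known, and the comparison of batches was added after the data were seen. P-values set a difference against the spread between these libraries. Results for a few genes are not reported here.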

Additional observations from a re-analysis of the deposited data

Results flagged for a closer look

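Some libraries stood apart from the other 4 of their group by Dixon's criterion, in 14 of 158 groups of 5 examined, where chance gives about 1 in 20, or 7.9. Most were values above the rest of the group at P56: Oasl2 in replicate 4 (13.2 CPM), Atm in replicate 5 (6.8 CPM), Spp1 in replicate 1 (11 CPM), Pf4 in replicate 2 (4.36 CPM), H2-Aa in replicate 3 (19.6 CPM), H2-Ab1 in replicate 2 (62.2 CPM), Mki67 in replicate 2 (0.606 CPM), Ythdc2 in replicate 1 (43.3 CPM) and Xist in replicate 4 (1.95 CPM). Zfp36 was low in P56 replicate 4 (281 CPM). At P21 they were U2surp in replicate 4 (46.4 CPM), Mki67 in replicate 3 (1.5 CPM) and Xist in replicate 1 (121 CPM). The total count of P56 replicate 2 was 9898257.

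The change from P21 to P56 differed between microglia and mMΦ, by a test of the difference, for Cd74 (-5.42 on the log2 scale), H2-Ab1 (-4.66), H2-DMa (-2.23), Cd81 (-1.28) and Ccr1 (-3.53). It differed between batches S232 and S276 for Sertad1 (3.78), Apoe (-3.51), Cited2 (2.99), Egr1 (3.57), Zfp36 (2.81) and Ppp1r15a (4.54). What sets the batches apart at P21 was not tested.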

How the results depend on the processing

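In the P56 against P21 comparison 1 gene was called by limma voom and by edgeR with DESeq2's size factors, the legacy quasi-likelihood fit or a replicate block. EdgeR called 2 with no low-count filter (Hsp90ab1 and Cst3), 0 with no batch term, 14 with all 45 libraries, 6 with all 19 microglia libraries and 38 in S276 alone; DESeq2 called 200. Leaving out single libraries gave 1 to 4 calls, the 4 without P56 replicate 3 (Hsp90ab1, Egr2, Dusp2 and Ints6l). The difference from mMΦ gave 183 calls with DESeq2, 2 in S232 alone, 8 with all 45 libraries, 4 with a replicate block, 5 each with limma voom and the legacy fit, of which only 1 and 2 are among the 5 named, and 2 to 7 without single libraries. That from pvMΦ gave 147, 1 and 14 in the first of these settings and 0 without any single library. The difference between batches gave 331 with DESeq2, 22 with limma voom, 1 with the legacy fit, 0 without the 2 libraries that stand apart and 0 to 48 without single libraries. The cause was not tested. Replicate numbers do not pair the samples. As deviations from the group mean, same-numbered libraries correlated at -0.0065 to 0.235, and 2 of 5 correlated best with their own number. As deviations from the mean of group and batch, they correlated at -0.0371 to 0.0194, and only replicate 1 correlated best with its own number. Detected genes differed by -987 to -414 without single libraries. No called gene changed sign in the P56 against P21 comparison, but of the named genes, nearly all uncalled, up to 16 of 107 did so (S232 alone), 14 of 110 with S276 alone, 11 with limma voom and 9 without the 2 libraries.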
